A study of Caenorhabditis elegans with 8 samples.

Results

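The genes described here are the nuclear hormone receptor genes of Caenorhabditis elegans, chosen as all protein-coding genes whose symbol starts with nhr- and that had 10 or more reads summed over the 8 libraries. Of 269 protein-coding nhr genes in the annotation, 170 met this rule, 69 had 1 to 9 reads and 30 had no read. The files hold 46934 gene identifiers in all, and 13539 protein-coding genes had 10 or more reads. At the edge of the rule, 8 nhr genes had exactly 10 reads, among them nhr-117, nhr-120 and nhr-280, and 5 had 9 reads, among them nhr-52, nhr-81 and nhr-101.

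The study measured RNA of gonads dissected from young adults of the sin-3(syb2172) mutant, the hda-3(ok1991) mutant and the wild type (wt), and asked how loss of either protein alters the germline transcriptome. HDA-3 is one of the class I enzymes that remove acetyl groups from histones, and SIN-3 is a scaffold that brings such enzymes to chromatin in a co-repressor complex. There were 3 sin-3 libraries (replicates 3, 4 and 5), 2 hda-3 libraries (replicates 4 and 5) and 3 wt libraries (replicates 3, 4 and 5). Each library pooled the gonads of 9 to 12 worms, and the labels give 1 allele per mutant and state 3 independent biological replicates per strain, of which 2 are analysed here for hda-3. A dissected gonad holds the germ line together with its somatic sheath and spermatheca.

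Nuclear hormone receptors are transcription factors with a zinc-finger domain that binds DNA and a second domain that can bind small lipophilic molecules. The family is greatly expanded in nematodes, mostly by duplication of a gene related to vertebrate HNF4, while a smaller set has direct counterparts in insects and vertebrates. Receptors recruit co-repressors, which can carry histone deacetylases, or co-activators such as the Mediator complex, and in worms they are best known for control of fat use, molting, xenobiotic response and dauer formation.

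Libraries held 14550417 to 24389531 reads on genes, of which ribosomal RNA took 41.8 to 79.0%. Levels are given as CPM, reads per 1000000 on library sizes scaled by TMM, a method that adjusts for composition. Among the sin-3 libraries the TMM factor was lowest in replicate 3 (0.424) and highest in replicate 5 (2.296), the widest span within a group. The gene sin-3 had 0 to 2 reads per library in sin-3 gonads, against 606 to 1274 in wt gonads, and the gene hda-3 averaged 16.3 ± 3.40 CPM in hda-3 gonads (SD, n = 2), against 31.9 ± 6.21 CPM in wt gonads (SD, n = 3). Markers of sperm summed to 14.4 to 45.2 CPM in sin-3, 903 to 1083 CPM in hda-3 and 24.04 to 30.08 CPM in wt libraries. Markers of intestine summed to 183 to 468, 221 to 338 and 126 to 266 CPM in these groups, and those of somatic gonad to 231 to 297, 140 to 157 and 188 to 307 CPM. Muscle markers summed to 254 to 383 CPM in sin-3, 113 to 380 in hda-3 and 128 to 177.6 in wt, and oocyte markers to 4770 to 10813, 5583 to 5731 and 8750 to 14877 CPM. Neuron markers summed to 26.7 to 33.3, 26.5 to 33.4 and 35.8 to 47.2 CPM, and epidermis markers to 57.6 to 114.03, 75.03 to 108 and 48.8 to 63.9 CPM.

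The receptor genes were unevenly spread over the genome. Chromosome V carries 167 of the 269 coding nhr genes and 99 of the 170 genes described, while chromosome IV has 28, X 18, I 10, II 8 and III 7. The share of coding nhr genes that met the 10-read rule was lowest on chromosome I (43.5%), followed by II (53.3%) and V (59.3%), and was 78.3% on X, 84.8% on IV and 87.5% on III. By reads the order was different: the 28 genes on chromosome IV took 33.2% of all reads on these receptor genes, the 99 on V 28.03%, and the 10 on I 19.5%.

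**Figure D1:**
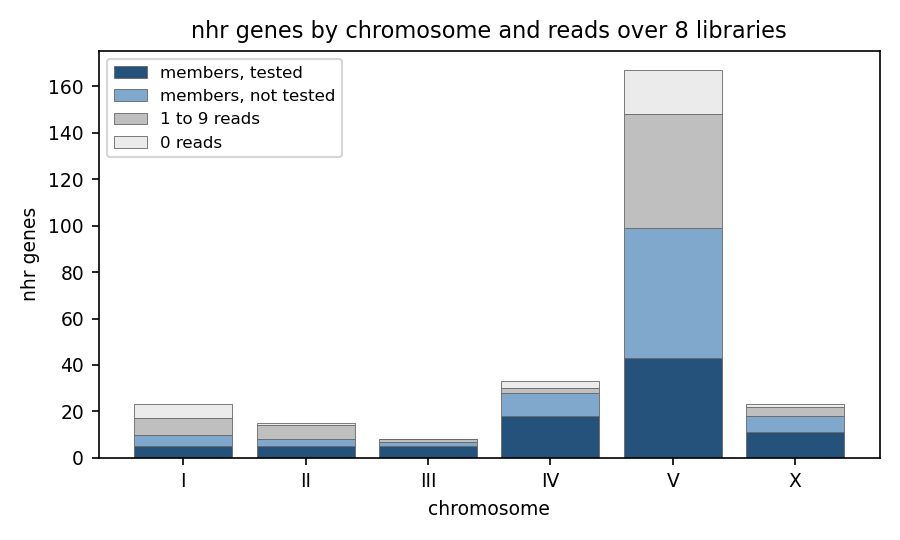
Protein-coding nhr genes per chromosome (vertical axis, number of genes), stacked by whether they had 10 or more reads over the 8 libraries (members, tested or not tested), 1 to 9 reads or 0 reads. Chromosome V has the most in every class, with 43 tested members.

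Most receptor genes were at low levels in wt gonads. Their median level per length was 0.211 TPM (transcripts per 1000000 outside ribosomal RNA, from reads per exon base; mean of 3 wt libraries), against 0.989 TPM for the 13539 coding genes with 10 or more reads. Only 24 of the 170 genes (14.1%) reached 1 TPM in all 3 wt libraries, against 45.9% of those coding genes. By reads, nhr-66 and nhr-49 alone took 28.3% of the 44335 reads on the 170 genes, and the top 10 took 53.96%.

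The highest wt level per length was that of nhr-49, an HNF4-related regulator of fat use and fatty acid desaturation, at 17.2 ± 6.78 TPM (SD, n = 3). Next came nhr-61 at 10.7 ± 2.12 TPM and nhr-66, whose product is a partner of NHR-49, at 10.5 ± 2.28 TPM. nhr-49 was above the other two in each wt library, with 10.2, 17.7 and 23.8 TPM in replicates 3, 4 and 5, while nhr-61 and nhr-66 changed places between libraries. They were followed by nhr-122 (6.90 TPM), nhr-46 (6.70 TPM), nhr-86 (6.601 TPM), nhr-249 (5.86 TPM), nhr-23 (4.66 TPM), nhr-71 (4.27 TPM) and nhr-181 (3.98 TPM). nhr-122 was below nhr-66 in each wt library, and from nhr-122 on each gene changed places with its neighbour in at least 1 library. NHR-86 is known as a sensor of a bacterial pathogen metabolite, and NHR-23 is the counterpart of vertebrate ROR, needed for molting and for spermatogenesis.

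**Figure D2:**
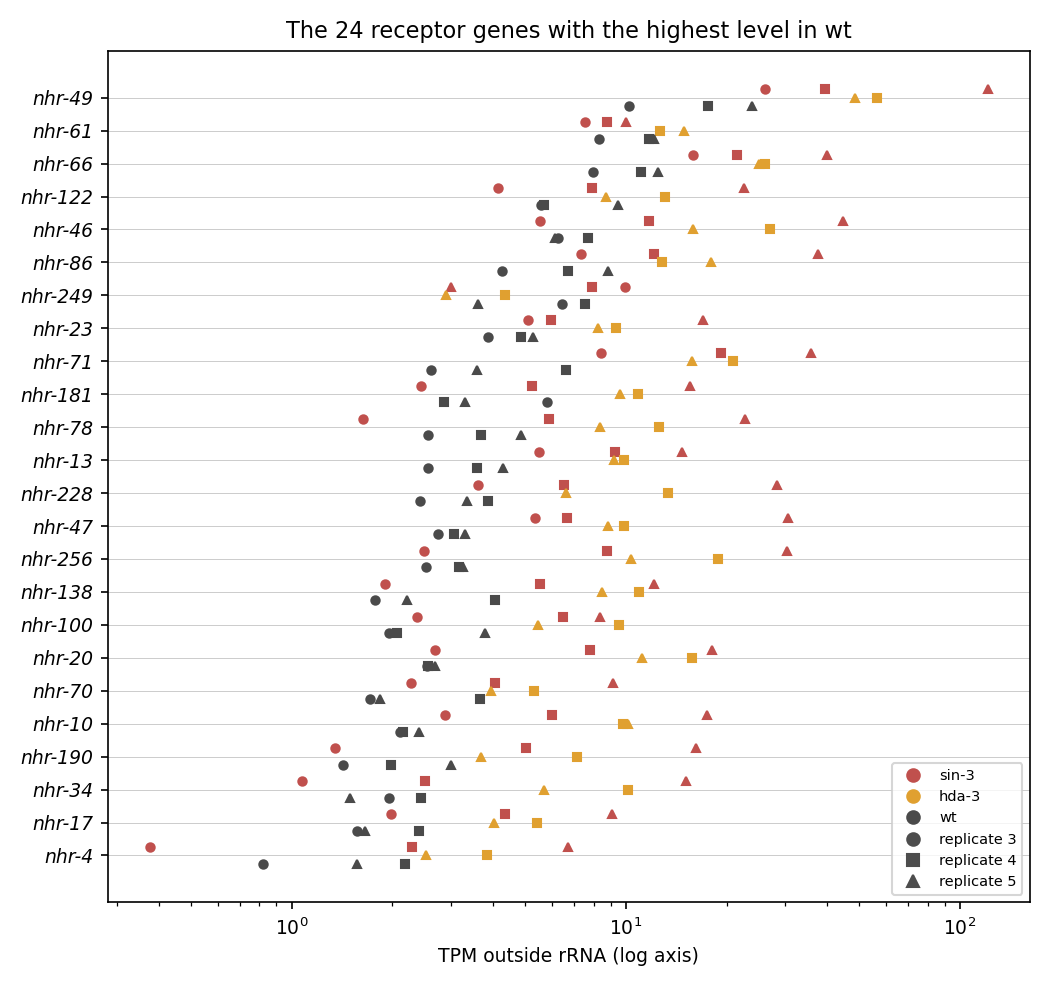
TPM outside ribosomal RNA (log axis) of the 24 receptor genes with the highest mean level in wt, one row per gene and one point per library (colour for genotype, shape for replicate). TPM carries no correction for composition, and points of sin-3 replicate 5 lie far right in most rows; nhr-49 ranges from 26.1 to 121 TPM over the 3 sin-3 libraries.

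The summed level of the 170 genes was 171 CPM in replicate 3 of sin-3, 194 CPM in replicate 4 and 306 CPM in replicate 5. It was 251 CPM in replicate 4 of hda-3 and 191 CPM in replicate 5, against 159, 171 and 163 CPM in wt replicates 3, 4 and 5. The means were 223 ± 72.0 CPM in sin-3 and 221 ± 42.4 CPM in hda-3, against 164 ± 6.42 CPM in wt (SD). Both hda-3 libraries lay above all wt libraries, while sin-3 replicate 3 lay within the wt range. Without the composition factors, the sums per 1000000 reads that were not ribosomal were 345.4, 556 and 1206 in the sin-3 libraries and 828 and 592 in those of hda-3, against 237, 301 and 299 in wt, and neither mutant overlapped wt. Without nhr-49 and nhr-66 the sums were 110 to 223 CPM in sin-3 and 130 to 188 CPM in hda-3, against 107 to 123 CPM in wt. These are sums over a bulk tissue, in which fewer cells of a type and less RNA per cell cannot be told apart.

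A pair of libraries stood out among the receptor genes. Of the 170 genes, 51 had their highest CPM of all libraries in sin-3 replicate 5, which is 30% of them, against 17.95% of all 14455 genes with 10 or more reads. Another 46 (27.1%) were highest in hda-3 replicate 4, against 14.5% of those genes. Genes with 10 or more reads in a library numbered 34 of the 170 in replicate 3 of sin-3, 74 in replicate 4 and 102 in replicate 5. They numbered 98 in replicate 4 of hda-3 and 50 in replicate 5, against 39, 39 and 50 in wt. These counts are not scaled for depth. Reads outside ribosomal RNA numbered 5110133, 8983839 and 13268274 in sin-3 replicates 3, 4 and 5. In hda-3 replicates 4 and 5 they numbered 11737818 and 7535861, against 7944100, 6112575 and 12299756 in wt. The part of single libraries in the summed levels cannot be told apart from the genotype with 2 or 3 libraries a group.

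**Figure D3:**
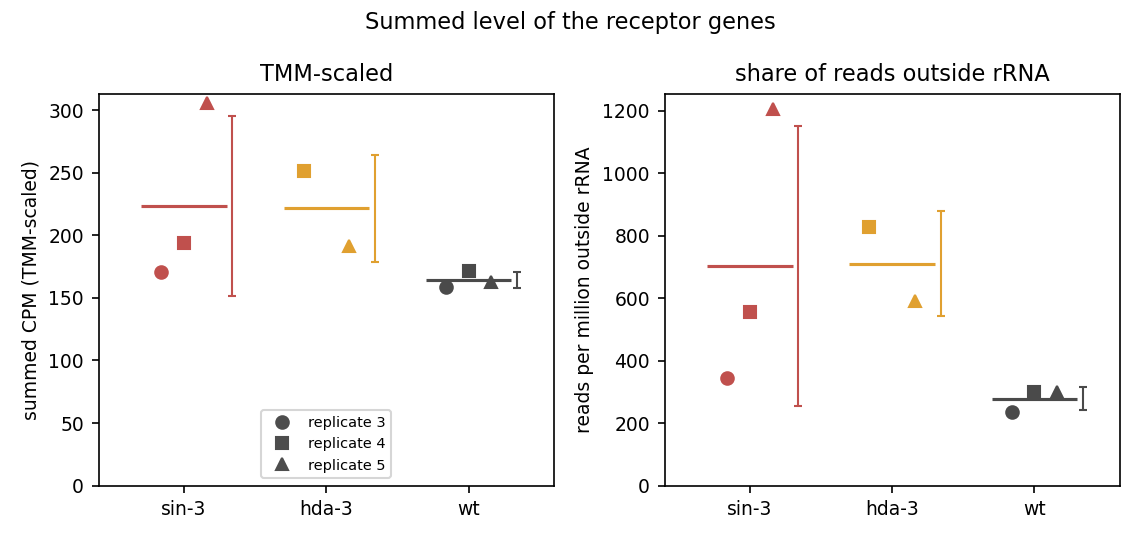
Summed level of the 170 receptor genes per library in TMM-scaled CPM (left) and in reads per 1000000 reads outside ribosomal RNA (right), with group means as horizontal lines and SD as bars. In the left panel sin-3 replicate 3 (171 CPM) sits among the wt libraries and sin-3 replicate 5 (306 CPM) above all others.

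Of the 170 genes, 87 had enough reads to be tested by edgeR's quasi-likelihood test, among 10302 genes in all. The 83 not tested had at most 65 reads each. A gene that passes this filter may do so through the group in which it is high, so counts over the tested genes are descriptions of those genes alone. A call means an adjusted p under 0.05, with the adjustment of Benjamini and Hochberg over all 10302 genes.

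In sin-3 gonads against wt, 3 of the 87 tested receptor genes were called (3.45%), while 7.6% of all tested genes were called. nhr-71 and nhr-84 rose, where 2.68% of all tested genes were called higher, and nhr-61 fell, where 4.92% were called lower. The share of called receptor genes was below that of all genes, but that of genes called higher (2.3%) was near it. Most receptor genes were at low levels, and whether this lowered the called share in either mutant was not tested. Of the 87, 74 (85.1%) had a log2 fold change above 0, against 56.3% of all tested genes, and the receptor median was 0.59, against 0.12. Before adjustment, 18 were higher (20.7%) and 3 lower (3.45%) at a p under 0.05, 24.1% of the 87 in all. Of all tested genes 26.8% passed, 13.9% higher and 12.9% lower. Without sin-3 replicate 5 the receptor median was 0.28.

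**Figure D4:**
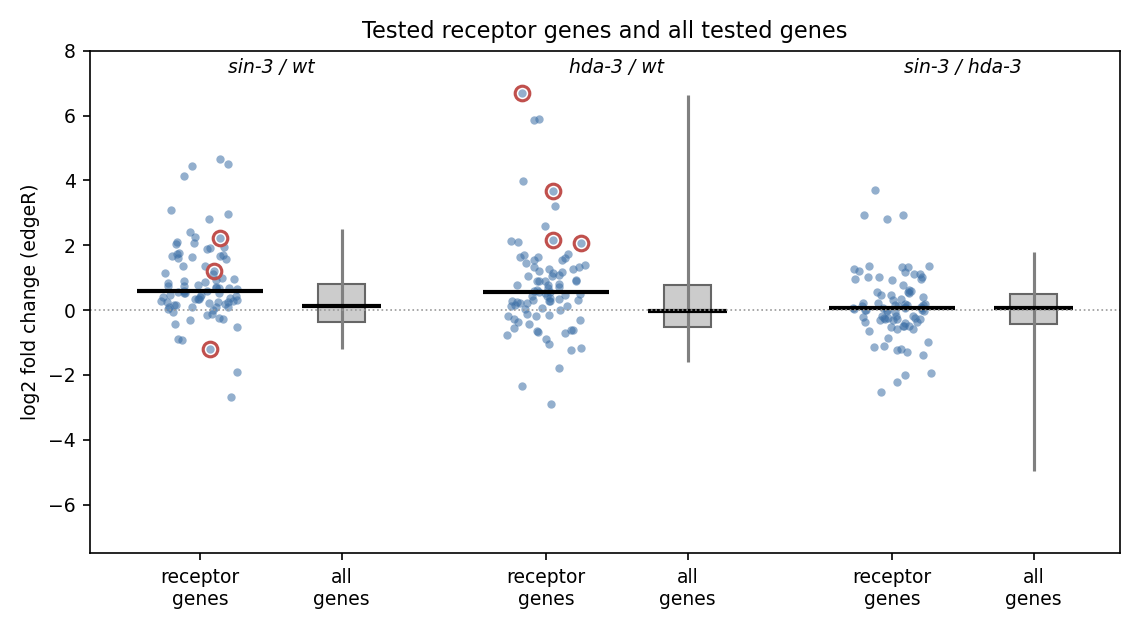
Log2 fold changes from edgeR (vertical axis) of the 87 tested receptor genes (points, black line at the median, red rings for called genes) and of all 10302 tested genes (box from the 25th to the 75th percentile, line from the 5th to the 95th, black line at the median) in the 3 comparisons. The receptor medians lie at 0.59 (sin-3 over wt), 0.55 (hda-3 over wt) and 0.05 (sin-3 over hda-3); fitted values of genes with no wt read, such as nhr-14 at the top of the hda-3 column, depend on the prior count.

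nhr-71 (WBGene00003661, chromosome X, 13747315 to 13751797, WBcel235) had 8.90, 13.4 and 15.1 CPM in the sin-3 libraries and 12.4 and 9.96 CPM in those of hda-3, against 4.06, 8.12 and 4.16 CPM in wt. Every library of either mutant was above every wt library, though wt replicate 4 came close to sin-3 replicate 3. Its log2 fold change was 1.21 in sin-3 (SE 0.34, edgeR adjusted p = 0.0496) and 1.05 in hda-3 (SE 0.36, edgeR adjusted p = 0.0679). Of 8 fits that each left out 1 library, the call in sin-3 held in the 2 without sin-3 replicate 3 or wt replicate 4, and the adjusted p reached 0.168 without wt replicate 5.

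nhr-84 (WBGene00003674, chromosome V, 15876732 to 15879608) was the one receptor gene called higher in both mutants, in comparisons that share the wt libraries. It had 0.774, 1.87 and 2.06 CPM in sin-3 and 1.94 and 1.16 CPM in hda-3, against 0.507, 0.280 and 0.266 CPM in wt. No mutant library overlapped wt, but the wt values rest on 6, 3 and 6 reads. The log2 fold change was 2.22 in sin-3 (SE 0.58, edgeR adjusted p = 0.0424) and 2.17 in hda-3 (SE 0.62, edgeR adjusted p = 0.0299), and 0.05 between sin-3 and hda-3. With 1 library left out at a time, the sin-3 call held only without replicate 3 of sin-3, and its adjusted p was up to 0.153, without wt replicate 5. That in hda-3 did not hold without wt replicate 4, wt replicate 5 or replicate 4 of hda-3, the last with an adjusted p of 0.271.

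nhr-61 (WBGene00003651, chromosome II, 14816136 to 14818543) was the receptor gene called lower. It had 4.74, 3.65 and 2.52 CPM in sin-3 and 4.45 and 5.62 CPM in hda-3, against 7.69, 8.58 and 8.41 CPM in wt, so that both mutants lay below wt. The log2 fold change was -1.20 in sin-3 (SE 0.32, edgeR adjusted p = 0.0442) and -0.71 in hda-3 (SE 0.35, edgeR adjusted p = 0.189). As TPM, which has no composition factor, it averaged 8.77 ± 1.24 in sin-3 and 13.8 ± 1.64 in hda-3, against 10.7 ± 2.12 in wt, so that the order of hda-3 and wt turns with the scaling and sin-3 overlaps wt. The call held only without sin-3 replicate 3 among the 8 fits that left out a library (adjusted p up to 0.131, without sin-3 replicate 4), and was lost with TMM on autosomal genes (adjusted p = 0.0525). nhr-61 shares 5 exon bases with W01D2.1 on the other strand, a gene with 9581 reads and a log2 fold change of -1.48 in sin-3 (edgeR adjusted p = 0.120) and -2.21 in hda-3 (edgeR adjusted p = 0.0420); its part in the nhr-61 counts was not tested.

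**Figure D5:**
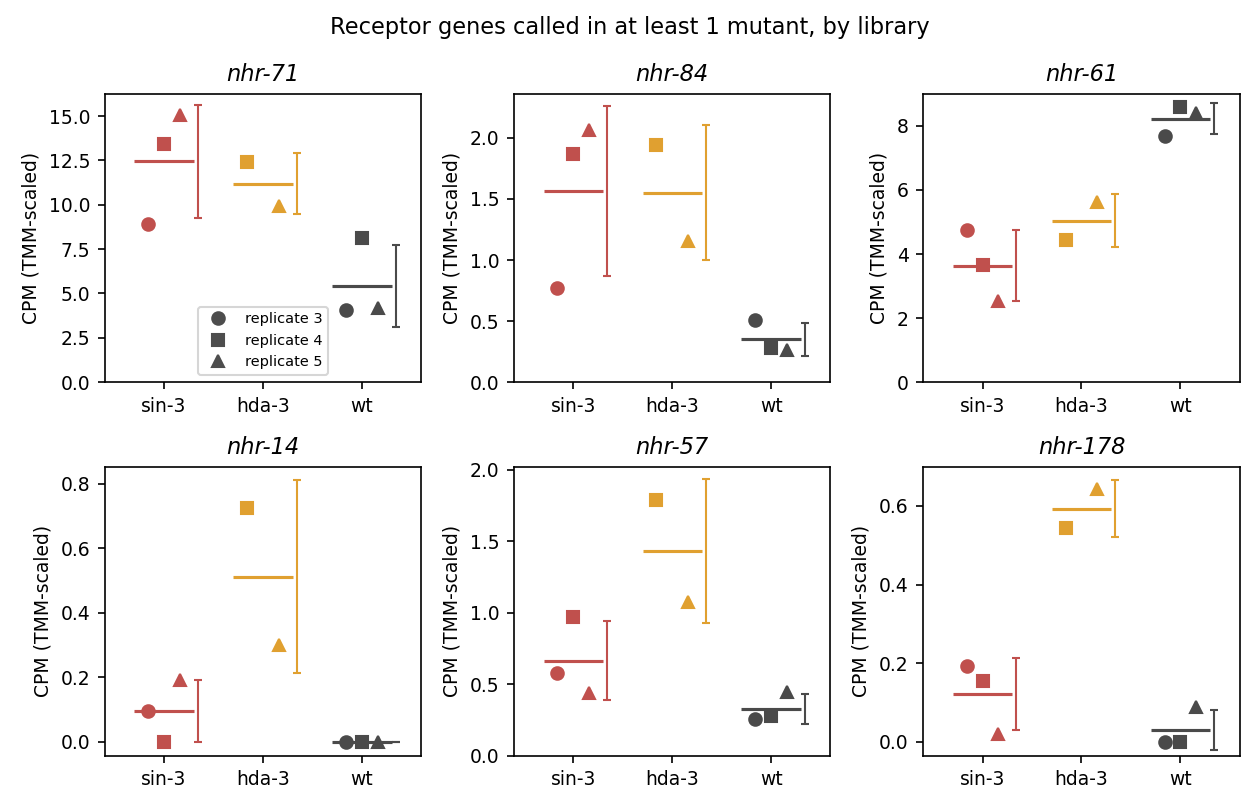
CPM on TMM-scaled library sizes per library for the 6 receptor genes called in at least 1 mutant against wt, with group means as lines and SD as bars; panels have their own axes. nhr-71 and nhr-84 are above wt in every library of both mutants, nhr-61 is below wt in both (not as TPM), and the hda-3 libraries of nhr-14, nhr-57 and nhr-178 are above all wt libraries.

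Over all 170 genes, 22 had every sin-3 library above every wt library (12.9%, against 13% of the 14455 genes with 10 or more reads) and 4 had every one below (2.35%, against 11%). The 4 lower genes were nhr-42, nhr-61, nhr-124 and nhr-243. A gene with no read in wt, as 13 of the 170 were, cannot lie below wt. These counts depend on the composition factors: as TPM, which has none, 50 genes had every sin-3 library above wt (29.4%, against 31.8% of all genes) and 0 had every one below (against 1.52%).

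The gene with the next lowest adjusted p in sin-3 was nhr-2, first described as a receptor of the early embryo. It had 2.23, 3.30 and 7.33 CPM in sin-3 and 3.70 and 2.19 CPM in hda-3, against 1.18, 1.21 and 1.46 CPM in wt. All mutant libraries were above wt, and the log2 fold change was 1.75 in sin-3 (SE 0.49, edgeR adjusted p = 0.0509) and 1.19 in hda-3 (SE 0.53, edgeR adjusted p = 0.144). It was called in sin-3 by DESeq2 (adjusted p = 0.0112), and by edgeR with RLE size factors (0.0491), without the filter or in a fit of sin-3 and wt alone. In the authors' deposited table nhr-2 is among 5 receptor genes called in sin-3, with nhr-61, nhr-71, nhr-84 and nhr-116. That table gives an adjusted p for 72 of these receptor genes, and 12.7% of all genes given one were called.

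Among the genes with the largest fitted rises in sin-3 that were not called, nhr-31, known for control of proton pump genes in the excretory cell, had 4, 3 and 42 reads in sin-3 and 24 and 4 reads in hda-3, against 0, 0 and 1 read in wt. The ratio of scaled counts to wt was 25.01 in sin-3 (95% exact interval 4.28 to 1008) and 20.4 in hda-3 (3.37 to 834), and the edgeR adjusted p was 0.0675 and 0.0575. Without replicate 5 of sin-3 the first ratio was 8.76 (interval 1.13 to 395), and without replicate 4 of hda-3 the second was 7.75 (interval 0.767 to 382). Such intervals cover counting error only. nhr-225 had 0.290, 0.583 and 1.37 CPM in sin-3 and 0.0259 and 0.215 CPM in hda-3, against 0.169, 0 and 0.0885 CPM in wt; sin-3 was above wt in every library (log2 fold change 3.10, SE 1.02, edgeR adjusted p = 0.0825). nhr-123 and nhr-136, with no read in wt, had 13 and 12 reads over the sin-3 libraries, at least 2.21-fold and 2.04-fold higher against a floor of 3 reads over the wt group. These reads came mostly from sin-3 replicate 5, with 12 and 11; sin-3 replicate 4 had no read of nhr-123 and sin-3 replicate 3 none of nhr-136. In hda-3 both libraries held reads of each, 18 and 19 in all, at least 4.37-fold and 4.61-fold higher than wt against the same floor (edgeR adjusted p = 0.0662 and 0.0522). nhr-136 shares 268 exon bases with lhpp-1 on the other strand, which had 238 reads and a log2 fold change of 1.61 in hda-3 (edgeR adjusted p = 0.0544); its part in the nhr-136 counts was not tested.

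Among the largest fitted falls in sin-3, nhr-42 had 0, 0.0777 and 0.153 CPM in sin-3, against 0.930, 0.746 and 0.354 CPM in wt, and nhr-243 had 0.194, 0.155 and 0.229 CPM, against 0.507, 1.12 and 0.664 CPM. Neither overlapped wt as CPM, and their edgeR adjusted p was 0.0878 and 0.0847. As TPM both overlapped wt, with 0.748 TPM for nhr-42 and 0.947 TPM for nhr-243 in sin-3 replicate 5, against a lowest wt library of 0.632 and 0.569 TPM. nhr-105 and nhr-286 followed, with log2 fold changes of -0.91 and -0.88 and overlapping libraries; that of nhr-286 was -1.43 when replicate 5 of sin-3 was left out and -0.53 when its replicate 3 was.

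On the X chromosome all 11 tested receptor genes had a log2 fold change above 0 in sin-3, against 83.1% of all tested X-linked genes. Their median was 0.68, against 0.70 for all tested X-linked genes. The 76 autosomal receptor genes had a median of 0.59, against 0.05 for all tested autosomal genes. In hda-3 the X-linked median was 0.47, against 0.32 for X-linked genes, and the autosomal median 0.56, against -0.05.

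In hda-3 gonads against wt, 4 of the 87 tested receptor genes were called (4.6%), all higher, while 18.4% of all tested genes were called, 13.5% higher and 4.86% lower. They were nhr-14, nhr-57, nhr-84 and nhr-178. Here too the called share was below that of all genes, while 65 of 87 (74.7%) had a log2 fold change above 0, against 48.9%, and the median was 0.55, against -0.02. Before adjustment, 15 passed a p under 0.05 (17.2% of the 87), 14 of them higher, where 32.2% of all tested genes passed, 18.4% higher and 13.8% lower. Without hda-3 replicate 4 the receptor median was 0.15. Every hda-3 library was above every wt library for 47 of the 170 genes (27.6%, against 21.4% of all) and below for 14 (8.24%, against 24.1%). As TPM, 88 genes had both hda-3 libraries above wt (51.8%, against 57.8% of all) and 1, nhr-53, had both below (0.588%, against 4.56%).

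nhr-14 (WBGene00003613, chromosome X, 8473722 to 8476178), an HNF4-like receptor tied to iron uptake and immunity, had no read in any wt library. It had 0.0968, 0 and 0.191 CPM in sin-3 and 0.724 and 0.3005 CPM in hda-3, from 1, 0 and 10 reads and from 28 and 7 reads. The hda-3 level was at least 8.50-fold higher than wt (edgeR adjusted p = 0.0312) and the sin-3 level at least 1.87-fold higher (edgeR adjusted p = 0.203), both against the floor of 3 reads. nhr-14 met the filter through the hda-3 libraries, the group in which it was high, and it was not tested with ribosomal RNA genes left out. The hda-3 call was lost without hda-3 replicate 4 or without any 1 of the wt libraries, with an adjusted p of up to 0.219 without hda-3 replicate 4.

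nhr-57 (WBGene00003647, chromosome V, 4131889 to 4135102), a gene known to be induced through HIF-1 in low oxygen, had 0.581, 0.971 and 0.439 CPM in sin-3 and 1.78 and 1.07 CPM in hda-3, against 0.254, 0.280 and 0.443 CPM in wt. The hda-3 libraries were above all others, and those of sin-3 overlapped wt as CPM. As TPM the sin-3 libraries did not overlap wt, with 0.813 to 2.06 TPM, against up to 0.566 TPM in wt. The log2 fold change was 2.07 in hda-3 (SE 0.62, edgeR adjusted p = 0.0374) and 0.96 in sin-3 (SE 0.60, edgeR adjusted p = 0.324). The difference between sin-3 and hda-3 was -1.11 (SE 0.58, edgeR adjusted p = 0.273), so the mutants were not shown to differ. The hda-3 call held without any 1 of the sin-3 libraries and was lost without any 1 of the hda-3 or wt libraries, with an adjusted p of up to 0.338 without hda-3 replicate 4.

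nhr-178 (WBGene00017510, chromosome V, 1603906 to 1607953) had 0.194, 0.155 and 0.0191 CPM in sin-3 and 0.543 and 0.644 CPM in hda-3, against 0, 0 and 0.0885 CPM in wt. The 36 hda-3 reads against 2 wt reads gave a ratio of 13.1 (95% exact interval 3.38 to 112; edgeR adjusted p = 0.0435). Like nhr-14, nhr-178 met the filter through the hda-3 libraries, the group in which it was high. Both hda-3 libraries were above all sin-3 and wt libraries. This call too held without any 1 of the sin-3 libraries and was lost without any 1 of the others (adjusted p up to 0.185, without hda-3 replicate 4), and DESeq2 did not make it (adjusted p = 0.0763). It shares 49 exon bases with F16B4.2 on the other strand, which had 31 reads in all, and nhr-57 shares 16 with lgc-1, which had 12; the part of these reads in the counts was not tested.

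The largest fitted falls in hda-3 were not called. nhr-53 had 0.0776 and 0.0858 CPM in hda-3, against 0.507, 1.12 and 0.354 CPM in wt, with no overlap as CPM or as TPM (log2 fold change -2.90, SE 1.16, edgeR adjusted p = 0.108). nhr-112 came next with a log2 fold change of -2.34, from 0 and 1 read in hda-3, against 2, 0 and 3 reads in wt. nhr-249 had 0.543 and 0.386 CPM in hda-3, against 2.11, 1.96 and 0.885 CPM in wt (log2 fold change -1.78, edgeR adjusted p = 0.157). It did not overlap wt as CPM, but as TPM it did, with 4.34 TPM in hda-3 replicate 4, against 3.61 TPM in wt replicate 5. nhr-65 and nhr-142 followed with log2 fold changes of -1.23 and -1.17, and their libraries overlapped wt. This order rests on single libraries: leaving out 1 moved nhr-112 between -4.46 (without replicate 5 of hda-3) and -1.19 (without replicate 4). In the same way nhr-65 moved between -3.86 without replicate 4 of hda-3 and -0.44 without replicate 5, and nhr-142 between -2.25 and -0.62. In hda-3 the authors' deposited table has nhr-20 as the one called of 90 receptor genes given an adjusted p (log2 fold change 1.57, DESeq2 adjusted p = 0.0315). Of all genes given an adjusted p, 17.5% were called. The 4 genes called here by edgeR had DESeq2 adjusted p of 0.147 (nhr-14), 0.226 (nhr-57), 0.0868 (nhr-84) and 0.302 (nhr-178) in that table.

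With sin-3 gonads set directly against hda-3 gonads, edgeR's quasi-likelihood test called 0 of the 87 tested receptor genes (DESeq2 also called 0), while 15.3% of all tested genes were called, 2.59% higher and 12.7% lower in sin-3. Before adjustment, 4 receptor genes were higher in sin-3 and 2 lower at a p under 0.05 (6.9% of the 87), where 24.9% of all tested genes passed, 8.61% higher and 16.3% lower. A log2 fold change above 0 was seen in 48 of the 87 (55.2%), against 54.7% of all tested genes, and the median was 0.05, against 0.06. Every sin-3 library was above every hda-3 library for 15 of the 170 genes (8.82%, against 16.8%) and below for 21 (12.4%, against 18.2%). Without sin-3 replicate 5, 7 of 73 tested receptor genes were called (9.59%), where 22.6% of all genes tested in that fit were. Of these, 6 were lower in sin-3 (nhr-14, nhr-21, nhr-22, nhr-34, nhr-46 and nhr-286) and nhr-53 was higher. A fit without hda-3 replicate 5 leaves 1 library in that group, and nhr-55 is then compared only through the library where it was high. It had 3.80 TPM in hda-3 replicate 4 and 0 TPM in hda-3 replicate 5, against 0, 0.0968 and 0.392 TPM in the sin-3 libraries. These genes were named after their values were seen.

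The receptors with direct counterparts in other animals were mostly too low to test: of 12 such genes, 11 met the 10-read rule and 3 were tested, none of them called in any comparison. nhr-23 had 5.90, 4.55 and 7.85 CPM in sin-3 and 6.03 and 5.71 CPM in hda-3, against 6.59, 6.53 and 6.68 CPM in wt. Its wt libraries were nearly equal, and the log2 fold change was -0.11 in sin-3 (SE 0.29, edgeR adjusted p = 0.839) and -0.17 in hda-3 (SE 0.33, edgeR adjusted p = 0.765). The sum of sperm markers given above was far higher in hda-3, beside an nhr-23 level that was close to wt only as CPM. As TPM, which has no composition factor, nhr-23 did not overlap between hda-3 and wt. Replicate 4 of hda-3 had 9.31 TPM and replicate 5 had 8.26 TPM, while wt libraries ranged from 3.87 to 5.27 TPM. Whether nhr-23 has a part in the sperm marker levels was not tested. nhr-6, the counterpart of vertebrate NR4A receptors and needed for the spermatheca, had 0.387, 0.505 and 0.993 CPM in sin-3 and 0.414 and 0.172 CPM in hda-3, against 0, 0 and 0.310 CPM in wt. All sin-3 libraries were above wt, without a call (edgeR adjusted p = 0.165). nhr-48, a relative of the DAF-12 receptor, overlapped wt in both mutants. Of the untested genes, nhr-25, of the FTZ-F1 type, had 33 reads in sin-3 against 2 in wt (ratio 8.42, interval 2.15 to 72.4), 26 of them in replicate 5, without which the ratio was 4.38 (interval 0.834 to 43.2). nhr-8, nhr-41, nhr-67, nhr-85, nhr-91, nhr-236 and nhr-239 overlapped wt in both mutants as CPM. As TPM, nhr-239 was above wt in every library of both mutants, and nhr-8 and nhr-91 in every sin-3 library.

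The next group was a list drawn up for metabolic receptors, not all of them known for metabolism (nhr-2 was first described in the early embryo). Of its 21 genes 19 were tested. Of these edgeR called none in sin-3, while nhr-14 and nhr-57 were called higher in hda-3, where 13.5% of all tested genes were. Leaving out 1 library gave 0 to 6 calls of this group in hda-3, with 6 without replicate 5 of sin-3 and 0 without any 1 of the wt libraries or replicate 4 of hda-3. nhr-49 had 25.5, 25.4 and 47.3 CPM in sin-3 and 30.8 and 28.3 CPM in hda-3, against 14.7, 20.1 and 25.5 CPM in wt. The hda-3 libraries were above wt, and sin-3 replicate 4 lay just below the highest wt library (log2 fold change 0.71, SE 0.28, edgeR adjusted p = 0.134 in sin-3; 0.55, SE 0.31, edgeR adjusted p = 0.237 in hda-3). Its partner nhr-66 had 35.02, 31.2 and 35.4 CPM in sin-3 and 32.4 and 33.1 CPM in hda-3, against 26.03, 28.5 and 30.2 CPM in wt. Every mutant library of nhr-66 was above wt by a small margin (log2 fold change 0.26 in sin-3, edgeR adjusted p = 0.334; 0.21 in hda-3, edgeR adjusted p = 0.464).

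The partner nhr-13 was likewise above wt in every mutant library, at 3.58, 3.96 and 3.82 CPM in sin-3 and 3.595 and 3.56 CPM in hda-3, against 2.45, 2.71 and 3.05 CPM in wt, without a call. nhr-80, whose product acts with NHR-49 on fatty acid desaturation, had 0.290, 0.0777 and 0.554 CPM in sin-3 and 1.34 and 0.0429 CPM in hda-3, against 0.0845, 0.187 and 0 CPM in wt. Its hda-3 reads came almost wholly from replicate 4, 52 of 53. The same library stood out for nhr-68, which acts with nhr-10 in the propionate shunt, with 2.87 CPM in hda-3 replicate 4 and 0.343 CPM in replicate 5, against 0.507, 0.280 and 0.0885 CPM in wt. nhr-10 had 3.88 and 4.29 CPM in hda-3, against 2.197, 1.77 and 1.86 CPM in wt, above wt in both libraries (edgeR adjusted p = 0.114).

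The other genes of this group were not called in either mutant. nhr-46 spread from 6.19 to 19.97 CPM in sin-3 and had 16.97 and 10.6 CPM in hda-3, against 7.53 to 10.3 CPM in wt. nhr-45, tied to mitochondrial stress in the intestine, had a log2 fold change of 1.87 in sin-3 (edgeR adjusted p = 0.126) and 1.53 in hda-3 (edgeR adjusted p = 0.196), with overlapping libraries as CPM. nhr-69 was above wt in every mutant library, and nhr-76, known from serotonin-driven fat loss, in every sin-3 library. nhr-114, which protects germ cells from a poor diet, had 0.774, 0.738 and 0.535 CPM in sin-3 and 0.724 and 0.258 CPM in hda-3, against 0.592, 0.933 and 0.398 CPM in wt, and overlapped wt in both. The list also holds nhr-2, which is given above with the settings that called it in sin-3. nhr-28, nhr-35, nhr-40, nhr-64 and nhr-86 also overlapped wt in both mutants as CPM, and nhr-60 and nhr-62 were not tested. As TPM, nhr-40 was above wt in every library of both mutants, and nhr-64 in every sin-3 library. nhr-28, nhr-45 and nhr-86 were above wt as TPM in both hda-3 libraries. nhr-40 had 2.18 to 5.92 TPM in sin-3 and 3.28 and 4.21 TPM in hda-3, against up to 1.90 TPM in wt.

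Among the highest wt genes outside these groups, nhr-122 had 2.23, 2.80 and 4.83 CPM in sin-3 and 3.93 and 2.79 CPM in hda-3, against 4.39, 3.55 and 5.58 CPM in wt. nhr-181 had 1.64, 2.33 and 4.201 CPM in sin-3 and 4.09 and 3.86 CPM in hda-3, against 5.75, 2.24 and 2.43 CPM in wt. Both genes overlapped wt in either mutant as CPM. As TPM, nhr-181 was above wt in both hda-3 libraries, with 10.8 and 9.60 TPM, against up to 5.79 TPM in wt.

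Receptor genes without an nhr symbol were few. Of 5 listed, 2 were tested, and sex-1, an X-linked receptor gene that takes part in counting X chromosomes, rose in sin-3. It had 7.45, 8.39 and 13.5 CPM in sin-3 and 7.29 and 6.82 CPM in hda-3, against 4.23, 4.29 and 2.83 CPM in wt, with no overlap of either mutant with wt. In hda-3 its log2 fold change was 0.91 (edgeR adjusted p = 0.0984), called by DESeq2 (0.0434) and by edgeR on hda-3 and wt alone (0.0285). Its log2 fold change in sin-3 was 1.39 (SE 0.33, edgeR adjusted p = 0.0289), a call held without replicate 3 or 5 of sin-3 or replicate 4 of hda-3 and lost without any 1 of the other libraries (adjusted p up to 0.115, without wt replicate 5). daf-12, the dauer steroid receptor, averaged 0.617 ± 0.152 CPM in sin-3 and 0.469 ± 0.360 CPM in hda-3, against 0.382 ± 0.0887 CPM in wt, and was not called. Of the genes listed for its steroid ligands, 4 of 10 were tested, and edgeR with TMM on all genes called none in any comparison. DESeq2 called ncr-1 higher in sin-3 (adjusted p = 0.0215) and ncr-2 higher in hda-3 (adjusted p = 0.0349), and ncr-2 lower in sin-3 than in hda-3 (adjusted p = 0.0379). The edgeR adjusted p for these was 0.0554, 0.0662 and 0.0702, and edgeR also called ncr-2 higher in hda-3 with TMM on autosomal genes (0.04897), in a fit of hda-3 and wt alone (0.00681) and without replicate 5 of sin-3.

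Of the co-repressor and Mediator genes, all 28 found in the files were tested. In sin-3 edgeR with TMM on all genes called none higher, and 5 Mediator subunit genes fell: mdt-26 (log2 fold change -1.28), mdt-22 (-1.22), mdt-18 (-1.04), mdt-8 (-0.84) and mdt-29 (-0.83), where 4.92% of all tested genes were called lower. DESeq2 called the same 5 lower and also called let-19 and din-1 higher (adjusted p = 0.0362 and 0.0379). In hda-3, mdt-22 fell alone (-1.29, edgeR adjusted p = 0.0059). mdt-22 averaged 72.9 ± 15.1 CPM in sin-3 and 69.2 ± 2.35 CPM in hda-3, against 169 ± 40.8 CPM in wt, and mdt-26 22.2 ± 10.04 and 46.3 ± 6.47 CPM, against 54.2 ± 7.12 CPM. Per read outside ribosomal RNA, which has no composition factor, mdt-26 overlapped wt in sin-3 and mdt-22 overlapped wt in both mutants. Of mdt-26, sin-3 replicate 5 had 1760 reads among 13268274, against 1373 among 12299756 in wt replicate 5. Of mdt-22, sin-3 replicate 5 had 3175 reads, against 1352 among 6112575 in wt replicate 4. mdt-26 was also lower in sin-3 than in hda-3 (-1.05), a call that held only without replicate 5 of sin-3 when 1 library was left out. The count of falls in sin-3 was 4 or 5 in 5 of the 8 fits that left out 1 library, and 0 without wt replicate 3, wt replicate 5 or sin-3 replicate 4; without replicate 3 of sin-3, cdk-8 was also called higher. In hda-3 the mdt-22 call was lost without either hda-3 library (adjusted p up to 0.0665). mdt-15, the subunit through which NHR-49 acts, had 22.2, 23.7 and 36.05 CPM in sin-3 and 18.9 and 21.9 CPM in hda-3, against 18.1, 20.9 and 21.3 CPM in wt, and edgeR did not call it. gei-8, the worm relative of the NCoR and SMRT co-repressors, had 3.68, 8.35 and 10.6 CPM in sin-3 and 11.4 and 10.8 CPM in hda-3, against 5.24, 5.60 and 4.34 CPM in wt. Its hda-3 libraries were above all wt libraries without a call by edgeR (adjusted p = 0.0669), while DESeq2 called it higher in hda-3 (adjusted p = 0.0243), as did edgeR with RLE size factors (0.0447) or TMM on autosomal genes (0.0441). din-1, a co-repressor partner of DAF-12, was at 21.5 ± 2.58 CPM in sin-3 and 11.8 ± 2.78 CPM in hda-3, against 11.5 ± 3.86 CPM in wt (edgeR adjusted p = 0.0684 in sin-3).

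Genes listed as targets of these receptors were also examined. Of 16 tested, 3 rose in hda-3, where 13.5% of all tested genes were called higher, and none fell. These were fat-5, fat-6 and fat-7, the delta-9 desaturase genes that NHR-49 and NHR-80 are known to activate. fat-7 had 0.387, 0.738 and 0.554 CPM in sin-3 and 1.55 and 1.46 CPM in hda-3, against 0.169, 0.187 and 0.0443 CPM in wt. All mutant libraries of fat-7 were above wt, and its log2 fold change in hda-3 was 3.61 (edgeR adjusted p = 0.00369), a call kept in all 8 fits that left out a library. fat-6 averaged 1.49 ± 0.466 CPM in sin-3 and 3.12 ± 0.825 CPM in hda-3, against 0.529 ± 0.435 CPM in wt (2.65 in hda-3, edgeR adjusted p = 0.0111), and it was not called without wt replicate 3, wt replicate 5 or replicate 4 of hda-3 (adjusted p up to 0.0923). fat-5 had 12 and 28 reads in hda-3, against 1, 1 and 0 in wt (edgeR adjusted p = 0.0355), and it was not called without any 1 of the wt libraries or without replicate 5 of hda-3, where the adjusted p was 0.326.

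Some target genes of nhr-10 and nhr-68 in the propionate shunt were called under other settings, and are named after their values were seen. acdh-1, an acyl-CoA dehydrogenase gene, had 2.42, 7.15 and 16.1 CPM in sin-3 and 53.9 and 5.15 CPM in hda-3, against 3.46, 2.24 and 0.708 CPM in wt. Both hda-3 libraries were above wt, with replicate 4 about an order of magnitude above replicate 5. Its log2 fold change in hda-3 was 3.85 (edgeR adjusted p = 0.0555), and it was called by DESeq2 (0.00947) and by edgeR with RLE size factors (0.0477), TMM on autosomal genes (0.0342) or without ribosomal RNA genes. With 1 library left out, edgeR called it only without replicate 5 of hda-3.

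hphd-1, a dehydrogenase gene of the same shunt, had 2.23, 5.83 and 6.93 CPM in sin-3 and 29.8 and 7.13 CPM in hda-3, against 8.11, 6.62 and 4.56 CPM in wt, so that hda-3 replicate 5 lay within wt. DESeq2 called it higher in hda-3 (adjusted p = 0.0420; edgeR 0.0892). It was lower in sin-3 than in hda-3 by DESeq2 (0.0113) and by edgeR with RLE size factors (0.04201) or TMM on autosomal genes (0.0421), with an edgeR adjusted p of 0.0504 with TMM on all genes. With 1 library left out, edgeR called hphd-1 in hda-3 without replicate 5 of hda-3 or replicate 3 of sin-3. Without replicate 4 of hda-3, edgeR called neither gene in any comparison.

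All 3 desaturase genes are expressed in the intestine. Of 19 tested intestine markers, 11 were called higher and 1 lower in hda-3, where 13.5% of all tested genes were called higher and 4.86% lower. In sin-3, 1 was called higher and none lower, where 2.68% of all tested genes were called higher and 4.92% lower. Leaving out 1 library gave 3 to 11 higher in hda-3, with 3 without replicate 4 of hda-3 and 6 without wt replicate 4, and 0 to 4 in sin-3, with 4 without wt replicate 3 or replicate 3 of sin-3 and 0 without wt replicate 4 or 5. With all libraries, the markers called higher in hda-3 were vit-1, vit-3, vit-5, vit-6, elt-7, cpr-1, cpr-6, act-5, asp-1, lys-7 and lys-8, and far-2 was lower. lys-7 was the one called higher in sin-3. The gene of the intestinal GATA factor elt-2 had 0.290, 0.505 and 0.764 CPM in sin-3 and 1.76 and 0.515 CPM in hda-3, against 0.845, 0.560 and 0.266 CPM in wt. It overlapped wt in both mutants as CPM and was not called (edgeR adjusted p = 0.985 in sin-3 and 0.329 in hda-3), and ges-1 and ttr-5 had no read in hda-3 replicate 4. The part of intestinal RNA in the levels of the desaturase and receptor genes was not tested.

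In sin-3, 2 of the 16 tested genes of the target list fell, where 4.92% of all tested genes were called lower, and none rose. alh-8, a dehydrogenase gene of propionate and valine breakdown, averaged 40.1 ± 3.89 CPM in sin-3 and 71.5 ± 15.5 CPM in hda-3, against 84.8 ± 11.1 CPM in wt (log2 fold change -1.08 against wt). spe-44, a regulator of spermatogenesis genes that also stands in the sperm marker list, had 6.68, 4.51 and 3.76 CPM in sin-3 and 13.9 and 12.3 CPM in hda-3, against 11.9, 13.8 and 15.5 CPM in wt (log2 fold change -1.49 against wt). Whether spe-44 is a target of one of these receptors was not tested. Neither gene overlapped between sin-3 and wt as CPM, and both were also called lower in sin-3 than in hda-3 (alh-8 by -0.84, spe-44 by -1.42). Per read outside ribosomal RNA, which has no composition factor, spe-44 did not overlap wt in sin-3, while alh-8 did. Of alh-8, sin-3 replicate 5 had 1862 reads among 13268274, against 817 among 6112575 in wt replicate 4. Against wt, neither call held without replicate 4 of sin-3 (adjusted p of 0.0523 for alh-8 and 0.066 for spe-44), and that of spe-44 did not hold without wt replicate 5 either. Both calls between the mutants were lost without replicate 4 of hda-3 (adjusted p = 0.26 for alh-8 and 0.0519 for spe-44). Of 19 tested sperm markers, 15 were called higher in hda-3, against 13.5% of all tested genes. In sin-3, 1 of them, spe-44, was called lower, against 4.92% of all tested genes. Leaving out 1 library gave 15 to 17 higher in hda-3 and 0 to 7 higher in sin-3, the 7 without replicate 3 of sin-3.

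Of 17 tested somatic gonad markers, 4 were called higher in sin-3, against 2.68% of all tested genes, and their median log2 fold change was 1.06. In hda-3, 1 was called higher and 3 lower, against 13.5% and 4.86% of all tested genes, and the median was -0.34. With 1 library left out, the higher count in sin-3 was 1 to 6, with 1 without wt replicate 3, wt replicate 5 or sin-3 replicate 4, 2 without either hda-3 library or replicate 5 of sin-3, and 6 when replicate 3 of sin-3 was dropped. The lower count in hda-3 was 0 to 4, with 0 without either hda-3 library and 1 without wt replicate 4. Of 13 tested muscle markers none was called in sin-3 and 1 was lower in hda-3, against 4.86% of all tested genes. No neuron (7 tested) or epidermis (3 tested) marker was called in either mutant. Of 15 tested oocyte markers, 1 (egg-3) was called higher in sin-3, against 2.68% of all tested genes, and none was called in hda-3. The oocyte median log2 fold change was -0.48 in sin-3 and -0.82 in hda-3. Before adjustment, 3 oocyte markers were lower in sin-3 at a p under 0.05 and 5 in hda-3, where 12.9% and 13.8% of all tested genes were. The part of other cell types in the receptor levels was not tested.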

How the data were processed

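RNA of dissected gonads was sequenced as single reads of 50 bases after Smart-seq2 amplification, per the labels' protocols. The authors deposited whole-number read counts per gene and, per the file headers, a table per mutant with log2 fold changes, their standard errors, a test score (the Wald statistic) and p-values. The submitters' processing notes name DESeq2 1.36.0, HTSeq 0.7.2, STAR 2.7.3a and fastp 0.20.1. The sources used here give no build, annotation or strand setting. Without a strand setting, reads of genes that overlap on opposite strands cannot be told apart: 34 of the 170 receptor genes share exon bases with another coding gene, 27 of them on the other strand. Reads aligned to more than 1 place (3.03 to 5.57% of a library) were not counted per gene, so near-identical receptor genes are uncertain; reads on no feature were 1.06 to 2.27% and ambiguous reads 0.673 to 1.55%, and both were left out.

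Of 46934 identifiers, 46923 were in WBcel235 (Ensembl release 115), the source of coordinates, lengths and chromosomes, and 44112 had a symbol. Counts of all 8 libraries were fitted in 1 model with a term per genotype by edgeR 4.0.16 in R 4.3.3 (TMM, filterByExpr with a minimum count of 10 and total of 15, robust quasi-likelihood test), with Benjamini-Hochberg adjustment over 10302 genes. SE is the log2 fold change divided by the square root of F. TPM used exon lengths and reads outside ribosomal RNA. Ratios with 1 to 3 wt reads have 95% exact intervals. The steps were tested on simulated data.

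The receptor genes and lists were chosen with earlier results of these data known. Named with values were called receptor genes, the 10 with the highest wt TPM, the 5 largest rises and falls per mutant, and the conserved and metabolic receptors. Other lists were co-repressors and Mediator, receptors without an nhr symbol, steroid ligand genes, receptor targets and cell type markers. Alternatives were other size factors (RLE), ribosomal RNA genes left out, TMM on autosomal genes, no filter, DESeq2 1.42.0, the compared groups alone, a replicate block, and each library left out.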

Additional observations from a re-analysis of the deposited data

How the results depend on the processing

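The count of called receptor genes, 3 in sin-3 against wt, 4 in hda-3 against wt and 0 between the mutants, stayed within 1.5 times with RLE size factors, without ribosomal RNA genes, with TMM on autosomal genes and without the filter. DESeq2 called 5 in sin-3. A fit of the compared groups alone called 1 in sin-3 (nhr-2) and 16 in hda-3, 15 higher and 1 lower. Leaving out 1 library gave 0 to 6 calls in sin-3, 0 to 15 in hda-3 and 0 to 7 between the mutants; sin-3 had 6 without sin-3 replicate 3, 1 without wt replicate 4 and 0 without any other library, and hda-3 had 15 when replicate 5 of sin-3 was left out, 7 for its replicate 3, 1 without wt replicate 3 or 4, and 0 without wt replicate 5 or hda-3 replicate 4. The 15 in hda-3 were 20.5% of the 73 receptor genes tested in that fit, where 27.5% of all genes were called. The 7 in hda-3 were 8.05%, against 21.5%, and the 6 in sin-3 were 6.9%, against 14.2%. With 2 hda-3 libraries, a fit without one assumes that the other varies like the remaining groups. The cause was not tested. No called log2 fold change turned its sign. As TPM without composition factors, an alternative chosen after seeing the data, the count of receptor genes with every library higher than wt was 50 in sin-3 (22 as CPM) and 88 in hda-3 (47), and with every library lower 0 in sin-3 (4) and 1 in hda-3 (14). TMM on autosomal genes moved the median of all genes in hda-3 to 0.17, against -0.02 with all genes, and that of the receptor genes to 0.75, against 0.55.

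Same-numbered libraries share only a number: their deviations correlated at -0.0908, 0.0532 and 0.109 between sin-3 and wt for numbers 3, 4 and 5, and at 0.0824 and 0.292 between hda-3 and wt for 4 and 5. With the replicate block, 2 receptor genes were called in sin-3 (2.3%, against 9.54% of all tested genes). It called 0 in hda-3 and 0 between the mutants, against 13.1% of all tested genes in each. With it, let-19 and din-1 were called higher in sin-3 (edgeR adjusted p = 0.0492 and 0.0238). ncr-2 was called higher in hda-3 (0.0423) and lower in sin-3 than in hda-3 (0.0309), while fat-5 was not called in hda-3. Low reads limit the family: 83 of 170 genes could not be tested.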
